A study of Mus musculus with 6 samples.

Results

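The cell cycle engine is described here through 46 genes, matched by symbol to the 21631 protein-coding genes of the mouse assembly GRCm38 on chromosomes 1 to 19 and X, and all 46 were found there. They encode cyclins, the cyclin-dependent kinases (CDKs) that cyclins activate, CDK inhibitors and activators, the retinoblastoma (pocket) proteins, the E2F, DP, MYB and FOXM1 transcription factors, and kinases of mitosis. Open chromatin was mapped by ATAC-seq, an assay in which a transposase inserts sequencing adapters into DNA that is free of tightly packed nucleosomes, in the thymus of mice at 4 weeks of age. There were 3 libraries from p53 AD/- mice, which carry a p53 allele named AD, described as dimeric, over a null allele, and 3 from p53 -/- (p53-null) mice. Both groups therefore carried at least 1 null p53 allele, were of a mixed background of equal parts BALB/C and C57BL6, and were sampled as thymus, with no sorting step stated. No mouse with intact p53 was compared, and nothing states whether each library came from a separate mouse.

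Cyclins bound to CDKs drive the passage from one cell cycle phase to the next, and D- and E-type cyclins do so at entry into DNA replication by phosphorylating the pocket proteins and freeing E2F factors. When p53 induces the CDK inhibitor p21, pocket proteins and E2F4 assemble with a MuvB core into the DREAM complex, which represses many genes of the later phases through promoter elements called CHR and through E2F sites. In the thymus, immature thymocytes proliferate in bursts after rearranging a T cell receptor beta chain, and cyclin D3 with CDK6 is known to carry much of that expansion.

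The measure was the peak summit, the position of highest signal in a called peak, with a score read as the −log10 of the q-value against the local background. A library held 44496 to 60160 summits, fewest in p53 AD/- library 3, and because read counts were not used here the depth is unknown. Scores rise with depth, so each score was turned into its percentile among all summits of its library, with 100 at the top. A gene end counted as open when a summit lay within 1 kb of either annotated end of the gene. The thymus holds several cell types, so a lower score cannot be told apart from fewer cells with that region open. Of 14 T cell development markers, 13 had a gene-end summit in all 6 libraries, against 2 of 6 B cell, 0 of 6 myeloid, 2 of 6 erythroid, 2 of 6 thymic epithelial and 3 of 6 endothelial and mesenchymal markers. The T cell marker left out was Gata3, with a gene-end summit in 0 libraries. The myeloid marker Itgam and the thymic epithelial marker Foxn1 had one in 5 libraries each, and the thymic epithelial marker Psmb11 in 2. Trp53 itself had a summit just outside an annotated end in every library, at percentiles of 79.9 to 86.5, so it is no check of genotype.

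The ends of nearly all cell cycle engine genes were open in both genotypes. A gene-end summit was found in all 6 libraries for 44 of the 46 genes, compared with 52.6% of all protein-coding genes, and in 0 libraries for the other 2, Ccna1 and Ccnd1. Each library thus had the same 44 genes, 44 in every p53 AD/- library and 44 in every p53-null library. The median percentile of these 44 genes, taken over the 6 libraries, was 90.3, compared with 89.3 over all 11385 genes with a gene-end summit in every library. Among them, 25 lay above the all-gene median. Their own medians ran from 61.8 for E2f2 to 99.2 for Mybl1.

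**Figure D1:**
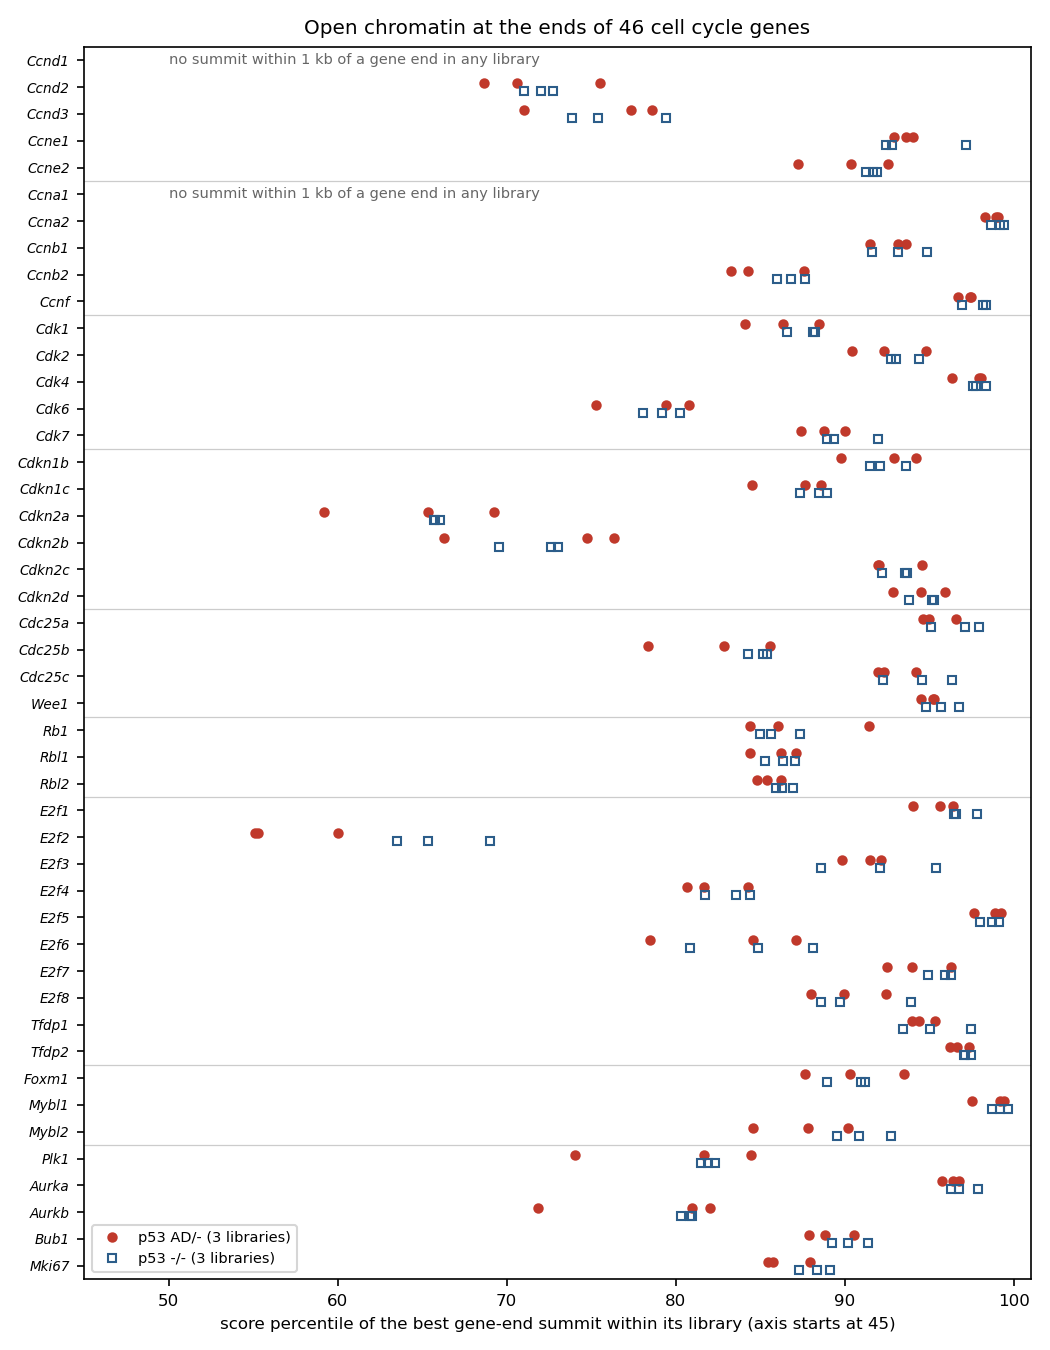
Score percentile of the best summit within 1 kb of a gene end for each of the 46 genes, with 1 filled red circle per p53 AD/- library and 1 open blue square per p53-null library, and grey lines between functional groups. Most genes lie above 80 with the symbols of both genotypes intermixed, E2f2 is the gene with the widest gap between genotypes, and Ccnd1 and Ccna1 have no summit.

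Among the cyclins of replication entry, the D-type genes had the lower gene-end scores and the E-type genes the higher ones. Ccnd2, which with Ccnd3 is the D-type cyclin of lymphoid cells, stood at percentiles of 70.6, 75.5 and 68.6 in p53 AD/- libraries 1 to 3, against 72.0, 72.7 and 71.0 in the p53-null libraries. Ccnd3 stood at 78.6, 77.4 and 71.0 in p53 AD/-, against 73.8, 75.4 and 79.4 in p53-null thymus. For both genes the genotypes overlapped, and p53 AD/- library 3 held the lowest value. Ccne1, the cyclin E1 gene and a known E2F target, stood at 92.9, 93.6 and 94.1 in p53 AD/-, against 92.8, 97.2 and 92.4 in p53-null thymus, and Ccne2 had a median of 91.5 over the 6 libraries.

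Ccnd1 encodes cyclin D1, the D-type cyclin prominent in epithelial and many other cell types. It had no summit within 1 kb of its ends (chromosome 7, 144929931 to 144939831), although 4 regions in or within 20 kb of it were found in all 6 libraries. The nearest of these lay 1813 bp outside the gene, with mean percentiles of 30.9 ± 14.2 in p53 AD/- and 38.9 ± 5.33 in p53-null thymus (SD, n = 3 each). A region inside the gene, 2155 bp from an end, reached 65.8, 70.2 and 52.2 in p53 AD/-, against 65.4, 69.2 and 69.6 in p53-null thymus. The genotypes overlapped at both.

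The cyclins of replication and mitosis ranged from near the top of the lists, for Ccna2 and Ccnf, to below the all-gene median, for Ccnb2. Ccna2, which encodes cyclin A2 of S phase and early mitosis, stood at 99.1, 99.0 and 98.3 in p53 AD/-, against 99.4, 99.2 and 98.7 in p53-null thymus. The genotypes overlapped, and all 6 values were near the top of their lists. Ccnf, whose product cyclin F is the substrate receptor of a ubiquitin ligase, had a median of 97.4. Ccnb1 and Ccnb2, the B-type cyclins that activate CDK1 at mitotic entry, had medians of 93.2 and 86.4. Ccna1, a cyclin of the male germ line in mice, is the 1 member with no region of any library in its body or within 20 kb. Of all genes, 22.3% had no such region.

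Among the kinases, Cdk4, the partner of D-type cyclins, was highest and Cdk6, its close relative, lowest. Cdk4 stood at 98.0, 96.3 and 98.1 in p53 AD/-, against 98.3, 97.8 and 97.6 in p53-null thymus. Cdk6 stood at 79.4, 80.8 and 75.3 in p53 AD/-, against 79.2, 78.1 and 80.2 in p53-null thymus. These Cdk6 values come from an end of the gene span upstream of its annotated start site at 3343893, where the median was 70.8. Cdk2, which pairs with cyclins E and A, Cdk7, the CDK-activating kinase, and Cdk1, the mitotic kinase, had medians of 92.9, 89.2 and 87.4. The genotypes overlapped for all 5 kinase genes.

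The promoters of the mitotic genes showed where the summits sit relative to known control elements. RefSeq start sites on GRCm38.p6 were given for 33 of the 46 genes, 40 start sites in all, and 32 of the 33 had a summit within 1 kb of a start in every library. At 20 of the 35 start sites with a summit in every library, the median position of the best summit was within 100 bp of the start. The sequences of 4 mitotic genes that are textbook targets of DREAM and FOXM1 are given because each holds a pair of CCAAT boxes, the site of the factor NF-Y, on the same strand with 31 to 33 bases between their first bases. Each is the 300 bases from 250 before the start site, 5′ to 3′ on the gene's strand, and capitals mark CCAAT boxes, CHR elements (TTTGAA or TTCGAA) and E2F sites (TTTGGCGC, TTTCCCGC, TTTCGCGC or TTTGCCGC), on either strand.
Cdk1, minus strand, chr10:69352863-69353162: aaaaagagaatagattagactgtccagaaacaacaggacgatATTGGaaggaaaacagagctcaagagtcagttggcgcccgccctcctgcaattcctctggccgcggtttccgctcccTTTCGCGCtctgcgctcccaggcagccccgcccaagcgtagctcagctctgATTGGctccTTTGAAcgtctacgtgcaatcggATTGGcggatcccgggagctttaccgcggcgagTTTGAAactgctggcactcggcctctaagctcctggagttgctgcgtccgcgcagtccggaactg
Ccnb1, minus strand, chr13:100786437-100786736: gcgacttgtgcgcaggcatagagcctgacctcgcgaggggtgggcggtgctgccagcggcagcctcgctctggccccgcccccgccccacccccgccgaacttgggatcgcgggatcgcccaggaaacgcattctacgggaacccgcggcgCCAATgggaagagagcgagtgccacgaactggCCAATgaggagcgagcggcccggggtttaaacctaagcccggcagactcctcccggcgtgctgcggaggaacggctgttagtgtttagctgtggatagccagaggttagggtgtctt
Ccnb2, minus strand, chr9:70421505-70421804: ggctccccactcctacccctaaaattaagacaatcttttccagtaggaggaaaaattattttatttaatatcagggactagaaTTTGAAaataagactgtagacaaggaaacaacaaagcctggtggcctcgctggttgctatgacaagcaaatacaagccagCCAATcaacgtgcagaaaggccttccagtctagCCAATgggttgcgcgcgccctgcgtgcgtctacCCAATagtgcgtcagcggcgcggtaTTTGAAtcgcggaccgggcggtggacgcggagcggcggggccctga
Aurka, minus strand, chr2:172370521-172370820: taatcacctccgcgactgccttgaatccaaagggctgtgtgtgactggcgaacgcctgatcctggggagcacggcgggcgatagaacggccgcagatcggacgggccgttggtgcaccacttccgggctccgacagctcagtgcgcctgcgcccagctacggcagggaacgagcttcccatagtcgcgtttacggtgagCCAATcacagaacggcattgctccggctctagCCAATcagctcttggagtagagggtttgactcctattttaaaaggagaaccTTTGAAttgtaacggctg

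Offsets of summits are given in bp from the start, with upstream negative. In Cdk1 the best summit lay at −37, −79 and −95 in the p53 AD/- libraries, against −57, −85 and −85 in the p53-null libraries. That stretch holds a CHR element, whose first base is 71 bases upstream of the start, and CCAAT boxes at 80 and 48 bases upstream, and the E2F site lies further out at 131 bases. A second CHR element of Cdk1 begins 15 bases upstream, nearer the start than any of these summits. In Ccnb2 the summits lay between −60 and −20, within the row of 3 CCAAT boxes that begin 87, 54 and 21 bases upstream, each 33 bases from the next. In Ccnb1 they lay between −203 and −91, and its CCAAT boxes begin at 99 and 67 bases. Aurka, whose product is a kinase of spindle assembly, shares its gene end with Cstf1, and its summits lay upstream of both CCAAT boxes, which begin 51 and 19 bases before the start.

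Over the 33 genes with a start site in the table, 5 (15.2%) held such a CCAAT pair, the other being E2f7, compared with 1.79% of the 9165 genes with a start site whose ends were open in every library and 1.19% of all 17274. At least 1 CCAAT box was present in 21 of the 33 (63.6%, compared with 42.7% of the open genes), a CHR element in 13 (39.4%, compared with 15.6%) and an E2F site in 9 (27.3%, compared with 4.82%). A GC box, GGGCGG on either strand, was present in 29 (87.9%, compared with 69.9%), and the CRE palindrome TGACGTCA, searched as well, in 1, Cdkn2b (3.03%, compared with 3.82%). Hits of different motifs may share bases, as the CCAAT and GC boxes at the downstream Cdkn2a start do. These counts describe letters in a window and do not show that a factor was bound, and the spacing of the CCAAT pairs was looked at after the sequences had been read.

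**Figure D2:**
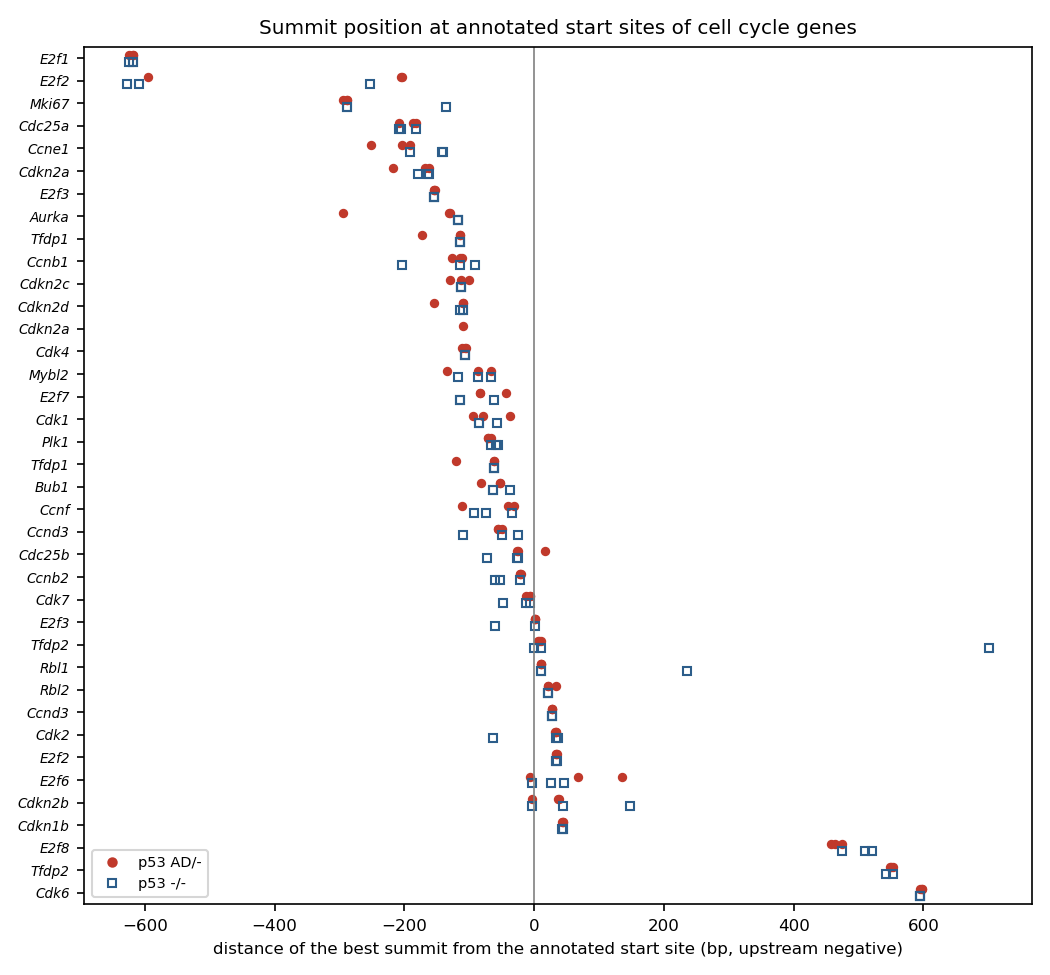
Distance in bp from each annotated start site to the best summit within 1 kb, 1 filled red circle per p53 AD/- library and 1 open blue square per p53-null library, with upstream negative and 1 row per start site. At Cdkn1b all 6 summits lie 43 to 45 bp downstream and at the upstream start of E2f3 at −155 to −153, whereas at E2f8 they lie 458 to 521 bp downstream and at E2f1 at −624 to −618 from the annotated start.

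The CDK inhibitors divided into 4 genes with higher gene-end scores and the Ink4a/Arf and Ink4b genes with lower ones. Cdkn1b, Cdkn1c, Cdkn2c and Cdkn2d, which encode p27, p57, p18 and p19Ink4d, had medians of 92.5, 88.1, 92.9 and 94.8, of which Cdkn1c lay below the all-gene median of 89.3. Cdkn2a, which encodes p16Ink4a and p19Arf, stood at 65.4, 69.2 and 59.2 in p53 AD/-, against 65.7, 65.7 and 66.0 in p53-null thymus. Cdkn2b, the neighbouring p15 gene, stood at 74.7, 76.3 and 66.3 in p53 AD/-, against 72.6, 69.5 and 73.1 in p53-null thymus. The genotypes overlapped at both, with a wider spread in p53 AD/- (SD 5.07 and 5.40, n = 3) than in p53-null thymus (SD 0.18 and 1.92, n = 3). For Cdkn2d the best summit was not at the same gene end in all libraries, since the other end is shared with Kri1, and at its own start the percentiles were 93.6, 92.3 and 92.9 in p53 AD/-, against 95.2, 94.6 and 91.2 in p53-null thymus.

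Cdkn2a has 2 annotated starts on chromosome 4, and they differed. The upstream start, at 89294619, is that of p19Arf, which stabilises p53 by inhibiting Mdm2, and it had a summit at an offset of −218 to −162 in all 6 libraries. The downstream start, at 89282192, which is that of p16Ink4a, had a summit within 1 kb in 1 library, p53 AD/- library 1, at a percentile of 2.63. The 2 promoters are shown because of this contrast, with capitals as above. The upstream one holds an E2F site whose first base is 99 bases before the start, and the downstream one a CCAAT box 20 bases after it.
Cdkn2a upstream start, minus strand, chr4:89294570-89294869: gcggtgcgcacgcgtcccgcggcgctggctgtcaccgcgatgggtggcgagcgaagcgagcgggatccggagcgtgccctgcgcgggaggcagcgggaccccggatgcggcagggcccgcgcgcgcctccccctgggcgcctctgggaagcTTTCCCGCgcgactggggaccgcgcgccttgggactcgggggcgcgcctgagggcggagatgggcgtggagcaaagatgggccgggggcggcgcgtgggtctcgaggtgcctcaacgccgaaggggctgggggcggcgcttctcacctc
Cdkn2a downstream start, minus strand, chr4:89282143-89282442: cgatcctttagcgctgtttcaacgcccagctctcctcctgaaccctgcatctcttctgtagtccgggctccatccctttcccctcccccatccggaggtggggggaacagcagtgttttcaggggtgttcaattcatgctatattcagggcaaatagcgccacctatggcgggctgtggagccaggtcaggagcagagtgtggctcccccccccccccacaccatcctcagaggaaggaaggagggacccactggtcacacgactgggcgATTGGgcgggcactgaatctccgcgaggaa

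The CDC25 phosphatases remove the inhibitory phosphates of CDKs that the kinase Wee1 adds. Wee1, Cdc25a and Cdc25c had medians of 95.3, 95.9 and 93.3, and Cdc25b was lower at 84.7. Cdc25b averaged 82.3 ± 3.66 in p53 AD/- and 84.9 ± 0.60 in p53-null thymus (SD, n = 3 each), a difference of −2.66 points that is within the spread between p53 AD/- libraries. The 3 pocket protein genes were close together, with medians of 85.9 for Rb1, 86.3 for Rbl1 and 86.1 for Rbl2. Rb1 stood at 86.0, 91.4 and 84.4 in p53 AD/-, against 85.0, 85.7 and 87.3 in p53-null thymus, and it was 1 of 3 members with a higher mean in p53 AD/-.

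E2f1 and E2f2, which encode activating E2F factors, were the members whose gene-end percentiles did not overlap between genotypes, and both were lower in p53 AD/-. E2f2 (chromosome 4, 136172274 to 136196057) stood at 55.1, 55.3 and 60.0 in p53 AD/-, against 63.5, 65.3 and 69.0 in p53-null thymus. Every p53 AD/- library lay below every p53-null library. The means were 56.8 ± 2.79 in p53 AD/- and 66.0 ± 2.81 in p53-null thymus (SD, n = 3 each), a difference of −9.18 points, with the summit 34 or 35 bp downstream of the start in every library. E2f1 (chromosome 2, 154559400 to 154569892) stood at 96.4, 95.6 and 94.0 in p53 AD/-, against 96.6, 97.8 and 96.5 in p53-null thymus. There the gap between the closest libraries of the 2 genotypes was small, and the difference of the means was −1.60 points.

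Neither difference can pass a test in this design. The exact permutation test of 3 against 3 libraries gave p = 0.1 for each, two-sided, the smallest p it allows, and a Benjamini-Hochberg adjusted p of 1 over 11385 genes, of which 0 had an unadjusted p under 0.05. Members lower without overlap were 2 of 44 and members higher without overlap 0 of 44, against a background of 5.29% lower and 1.01% higher, 6.3% in either direction, over all genes. The members' count is near that background. It moved with single libraries: without p53 AD/- library 2 it was 18 lower, against 22.4% of all genes, and without p53-null library 3 it was 7, against 11.9%. Without p53 AD/- library 3 it was 2 lower and 2 higher, counts that are not read as a result without the share over all genes beside them. The separation of the genotypes, but not the size of the difference, changed with the scale. With lists cut to equal length the differences were −9.165 points for E2f2 and −1.60 for E2f1, and the genotypes overlapped for both. When the percentile was taken among regions found in all 6 libraries, E2f2 stood at 37.8, 32.0 and 54.5 in p53 AD/-, against 49.5, 50.6 and 53.8 in p53-null thymus, a difference of −9.85 points, and p53 AD/- library 3 then lay above all p53-null libraries. E2f1 overlapped on that scale as well, at 94.9, 93.2 and 93.1 in p53 AD/-, against 95.2, 96.9 and 94.7 in p53-null thymus, a difference of −1.84 points.

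**Figure D3:**
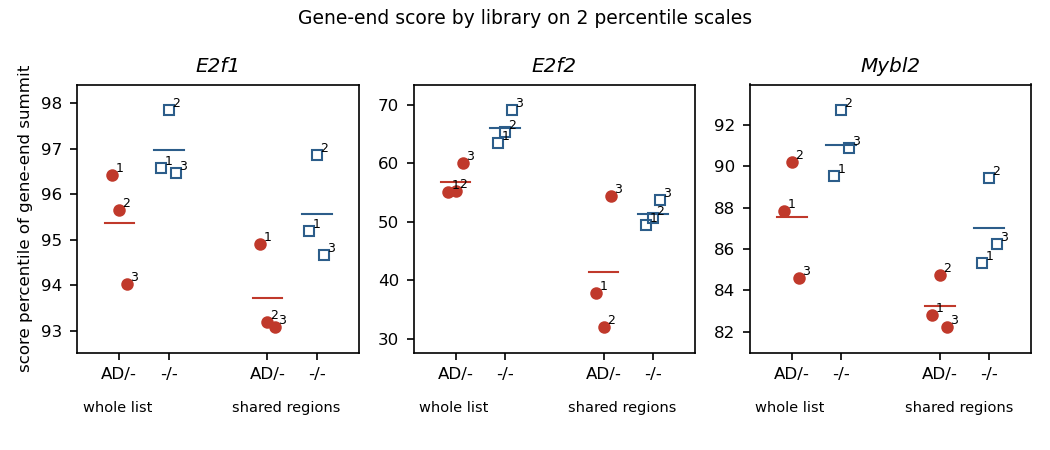
Gene-end score percentile of E2f1, E2f2 and Mybl2 in each library, numbered, with p53 AD/- as filled red circles left of p53-null as open blue squares and bars at the means, on the whole-list scale at the left of each panel and among regions found in all 6 libraries at the right. E2f1 and E2f2 are separated on the left scale alone, by genotype, and Mybl2 on the right scale alone.

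The E2f2 promoter is shown because it carries the widest difference among the 44 genes. Capitals mark a CCAAT box 13 bases before the start and an E2F site that begins 39 bases after it, and the summit in every library lay between these elements.
E2f2, plus strand, chr4:136172024-136172323: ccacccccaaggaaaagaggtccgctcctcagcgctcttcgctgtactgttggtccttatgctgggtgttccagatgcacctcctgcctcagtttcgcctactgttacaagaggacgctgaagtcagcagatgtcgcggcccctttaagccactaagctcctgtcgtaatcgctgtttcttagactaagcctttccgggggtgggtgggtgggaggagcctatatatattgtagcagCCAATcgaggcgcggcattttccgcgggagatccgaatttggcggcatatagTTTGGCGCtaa

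E2f2 also had a higher-scoring region inside the gene, 5582 bp from its end, at 86.5, 85.7 and 81.4 in p53 AD/-, against 85.8, 86.7 and 86.1 in p53-null thymus, and there the genotypes overlapped. A further start site of E2f2, at 136180782, had summits at −627 to −203 in all 6 libraries. It stood at 74.9, 74.0 and 69.4 in p53 AD/-, against 68.6, 72.7 and 70.4 in p53-null thymus. The genotypes overlapped there, and the mean was higher in p53 AD/-, by 2.19 points.

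The remaining E2F and DP genes overlapped between genotypes. E2f5, which encodes an E2F that binds p107 and p130, stood at 99.3, 98.9 and 97.7 in p53 AD/-, against 98.7, 98.0 and 99.1 in p53-null thymus. E2f7 and E2f8, atypical repressors that act without DP partners, had medians of 95.4 and 89.8, and Tfdp1 and Tfdp2, the DP partners, 94.7 and 97.1. E2f4, the E2F of the DREAM complex, shares its end with Exoc3l and stood at 81.6, 84.3 and 80.6 in p53 AD/-, against 81.7, 84.4 and 83.6 in p53-null thymus. E2f3, which has 2 start sites, had a summit at the upstream one in all 6 libraries and at the downstream one in 5 of 6, with none in p53-null library 1.

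Among the late-phase regulators, Mybl1, a MYB-family gene best known for its role in the male germ line, was the highest-ranked member. It stood at 99.2, 99.4 and 97.5 in p53 AD/-, against 99.2, 98.7 and 99.6 in p53-null thymus. Mybl2, which encodes the B-MYB subunit of the MuvB activator complex, stood at 87.8, 90.2 and 84.6 in p53 AD/-, against 89.5, 92.7 and 90.9 in p53-null thymus, a difference of −3.50 points (exact permutation p = 0.2, adjusted p of 1, n = 3 each). The genotypes overlapped on this scale. Among regions found in all 6 libraries Mybl2 stood at 82.8, 84.7 and 82.2 in p53 AD/-, against 85.3, 89.5 and 86.3 in p53-null thymus, without overlap. With 3 libraries per genotype that separation cannot pass the test either, and it is not read as a result. Foxm1, a forkhead activator of mitotic genes, shares its end with Rhno1 and had a median of 90.6.

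The mitotic kinases and Ki-67, encoded by Mki67, a coat protein of mitotic chromosomes used as a proliferation marker, had no member without overlap. Aurka, Bub1 and Mki67 had medians of 96.6, 89.7 and 87.6. Plk1, which encodes Polo-like kinase 1, averaged 80.0 ± 5.40 in p53 AD/- and 81.9 ± 0.415 in p53-null thymus (SD, n = 3 each). Aurkb, the chromosomal passenger kinase gene, averaged 78.3 ± 5.59 in p53 AD/- and 80.7 ± 0.355 in p53-null thymus. The wider spread in p53 AD/- came from library 3, at 74.0 for Plk1 and 71.9 for Aurkb.

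Across the 44 genes the mean percentile was lower in p53 AD/- than in p53-null thymus for 41 and higher for 3, with a median difference of −0.81 points. Over all 11385 genes it was lower for 71.8%, with a median of −0.60. The shift moved with p53 AD/- library 3, the shortest list, which held the lowest of the 6 values for 35 of the 44 genes and for 64.9% of all genes. Without that library the median over all genes was 0.234 points, and with lists cut to equal length it was 0.0277 points. Among regions found in all 6 libraries, 29 of the 44 genes were lower and 15 higher, with a median of −0.43 points, compared with 48.7% lower and a median of 0.0332 over all genes.

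The wider surroundings of the genes were examined by extending each summit by 250 bp per side and merging overlapping windows into regions. In the gene bodies and the 20 kb around them, 295 regions were found, 146 touching a body and 149 in the flanks, and 2 regions were counted for 2 members each. A summit was present in all 6 libraries in 171 of them (58.0%). That share was 52.1% of all 73702 regions and 53.4% of the 60735 regions in the same windows around all protein-coding genes. In 47 of the 295 a summit was present in 1 library alone (15.9%, compared with 16.4% of all regions). By library, 222, 237 and 195 of the regions were present in p53 AD/- libraries 1 to 3, against 222, 228 and 235 in the p53-null libraries. Of the 171, 48 lay within 1 kb of an end of the member, and 61 lay inside or within 1 kb of an end of another protein-coding gene, so they cannot be given to the member alone.

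**Figure D4:**
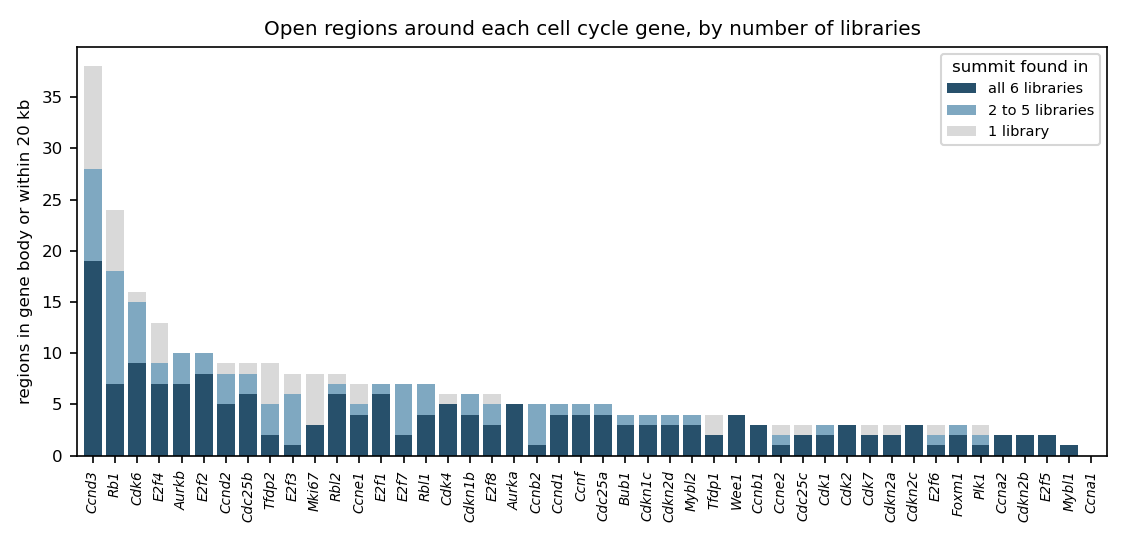
Number of regions in the gene body or within 20 kb for each of the 46 genes, divided by the number of libraries with a summit in the region. Ccnd3 has 38 regions, Rb1 24 and Cdk6 16, most other members have fewer than 10, and Ccna1 has 0.

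Ccnd3 had far more regions than any other member. It had 38, of which 19 were found in all 6 libraries, 15 of these touching the gene body (chromosome 17, 47505051 to 47599689), and by the number found in all libraries it ranked at the 99.8th percentile of all genes. Per 100 kb of window it had 14.1 such regions and still ranked at the 98.4th percentile. By that density Ccnd3 was not first among the members, since E2f4 had 14.7 and Aurkb 15.2. By library the regions numbered 23, 29 and 21 in p53 AD/-, against 21, 31 and 25 in p53-null thymus. The strongest inside the gene lay 37238 bp from an end, at percentiles of 94.0, 93.0 and 90.9 in p53 AD/-, against 95.3, 95.6 and 93.7 in p53-null thymus, and overlapped between genotypes. A second annotated start, at 47593467, had its summit exactly 28 bp downstream in all 6 libraries, at 85.9, 87.8 and 85.5 in p53 AD/-, against 88.0, 89.0 and 84.7 in p53-null thymus, above the gene-end values given earlier.

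Cdk6 followed by count, with 9 regions found in all 6 libraries, 8 of them touching the gene body. The gene spans 190005 bp, and the density was 3.91 per 100 kb of window, at the 59.8th percentile of all genes. The highest-scoring of the 9 regions, with a median of 94.3, lay 12850 bp beyond the gene at the end of Fam133b. Of the regions inside Cdk6 away from its ends and found in all libraries, the highest, 3485 bp from an end, had a median of 70.8, and the next, 33169 bp from the other end, had 61.3. The former is at the annotated start site of Cdk6, with its summits 594 to 598 bp downstream of that start. E2f2 had 8 such regions, and Rb1, E2f4 and Aurkb 7 each. All 7 at E2f4 lay at or in another gene, and 5 of 7 at Aurkb did not. Rb1 had 24 regions in all, but 17 of these were absent from at least 1 library.

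**Figure D5:**
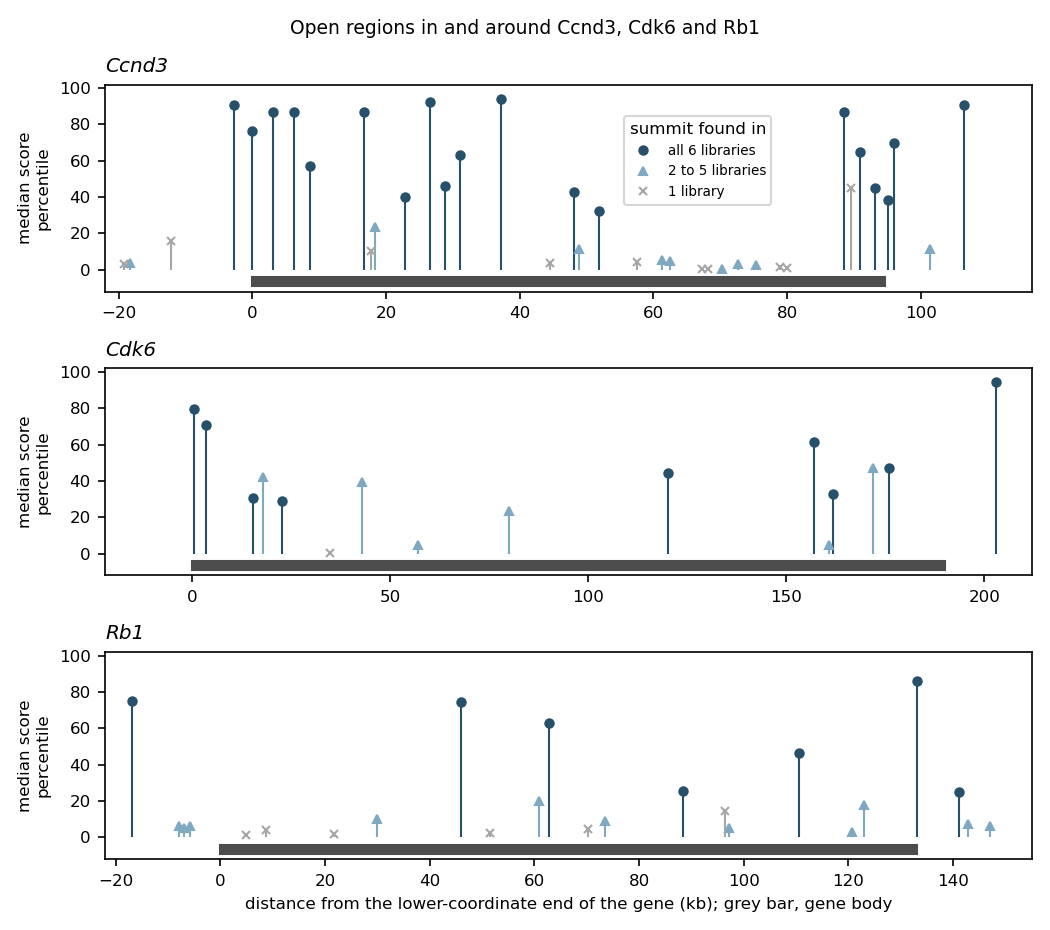
Median score percentile over the libraries with a summit, for each region in and around Ccnd3, Cdk6 and Rb1, by distance in kb from the end of the gene with the lower coordinate, with the gene body as a grey bar. Regions of all 6 libraries (dark circles) stand along the lower-coordinate part and at the far end of Ccnd3, and regions of fewer libraries (triangles and crosses) score lower in most cases.

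By the strict rule no region around the 46 genes was found in 1 genotype alone. Of the 295, 0 had a summit in all 3 p53 AD/- libraries and no p53-null library, and 0 the reverse, against a background of 0.179% and 0.418% over all regions. With summits in at least 2 libraries of a genotype and none of the other, 3 were p53 AD/- regions (background 1.51%), 2 at Rb1 and 1 at Ccnd3, and 4 were p53-null regions (background 2.37%), 2 at Ccnd3, 1 at Cdk6 and 1 at Cdc25a. The p53-null region at Cdc25a lay 14380 bp outside the gene, at percentiles of 19.5 and 21.9 in p53-null libraries 2 and 3. The others had no percentile above 6.33.

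Scores of the 171 regions found in all libraries were compared in the same way as the gene ends. In 10 of 171 every p53 AD/- library lay below every p53-null library, and in 0 of 171 above, against a background of 5.55% lower and 0.769% higher over all such regions. The members' share is near the background. Without p53 AD/- library 2 the count was 53 lower, against 25.2%, and without p53 AD/- library 3 it was 16 higher, against 12.0%. Beside the ends of E2f1 and E2f2, the 10 include 2 regions inside Ccnd3. One, 6264 bp from an end, stood at 85.2, 86.2 and 83.6 in p53 AD/-, against 87.8, 88.7 and 87.9 in p53-null thymus. The other, 3691 bp from the other end, stood at 59.5, 65.0 and 57.3 in p53 AD/-, against 66.0, 68.8 and 65.1 in p53-null thymus, where the closest libraries were nearly equal. A region inside Cdc25a, 1043 bp from an end, stood at 25.3, 25.9 and 23.2 in p53 AD/-, against 32.1, 30.6 and 29.2 in p53-null thymus. The remaining 5, around Ccnd1, Ccnf, Cdc25b and E2f1, lay at or in another gene. Among percentiles taken within regions found in all 6 libraries, the counts were 6 lower and 2 higher, against 4.61% and 5.11% over all regions.

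Other genes of the cycle were described through 3 lists. Of 24 genes of replication licensing and origin firing, 22 had a gene-end summit in all 6 libraries, Orc1, which encodes an origin recognition subunit, in 0, and Tk1, thymidine kinase, in p53 AD/- libraries 2 and 3 and p53-null library 1. Mcm6, a subunit of the replicative helicase, was higher without overlap in p53 AD/-, at 92.9, 92.8 and 93.2, against 92.3, 91.5 and 91.9 in p53-null thymus. Cdt1, a licensing factor, was lower without overlap, at 90.5, 90.4 and 88.9 in p53 AD/-, against 90.9, 92.9 and 94.5 in p53-null thymus. Of 108 regions around the genes of this list, 2 were found in all 3 p53-null libraries and no p53 AD/- library, at Mcm6 and Mcm10. None was found the other way round, against a background of 0.418% and 0.179% over all regions. The other lists of cell cycle genes had no region of 1 genotype. Of 198 regions around the T cell development markers, 1, at Gata3, was found in all 3 p53 AD/- libraries and no p53-null library. The background of such regions was 0.179%, and the other marker lists had no region of 1 genotype. Of 23 matched spindle, checkpoint and chromosome genes, 22 were open in all 6 libraries and Pttg1, which encodes securin, in 0. Espl1, the separase gene, and Cenpe, a kinetochore motor gene, were lower without overlap. Espl1 stood at 90.5, 90.5 and 89.0 in p53 AD/-, against 92.6, 94.3 and 92.4 in p53-null thymus, and Cenpe at 89.9, 90.8 and 90.5 in p53 AD/-, against 91.7, 92.2 and 90.9 in p53-null thymus. Of 18 DREAM scaffold, ubiquitin ligase and CDK accessory genes, 16 were open in all 6 libraries, Skp2 in 0 and Mnat1 in 3, and none was without overlap. Lower and higher genes without overlap thus numbered 1 and 1 of 22, 2 and 0 of 22, and 0 and 0 of 16, against 5.29% and 1.01% of all genes. Counts of 0 to 2 per list are too small to set a list apart from these shares. The median percentiles of the 3 lists, in this order, were 92.3, 94.0 and 95.9. The exact permutation p was 0.1 for each of the 4 genes named as without overlap, the smallest possible, and none has an adjusted p under 0.05 (exact permutation test, n = 3 each).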

How the data were processed

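The authors deposited 1 list of peak summits for each of 6 ATAC-seq libraries of mouse thymus. The deposited score was read as the −log10 of a q-value, since each list starts at 1.30 to 1.39. Per the submitters' processing notes the build was GRCm38 and the tools included MACS2 (2.1.2), Picard (2.9.0), Bowtie2 (2.3.4.2) and Trim Galore (0.4.5), with no roles. Read shifting, duplicate removal and masking are not given in the sources used here.

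Summits on chromosomes 1 to 19 and X were ranked within each library, extended by 250 bp per side and merged into regions (Python 3.11.15, pandas 2.3.3). Gene spans, start sites and promoter sequences came from RefSeq on GRCm38.p6. Genotypes were compared per gene by exact permutation of the 6 libraries (two-sided, 20 relabellings), with Benjamini-Hochberg adjustment over all genes. The computation was tested on simulated data. Libraries were grouped by genotype label and numbered in order of deposition, and p-values measure only the spread between these libraries, which may be technical.

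The members and lists were chosen with earlier results of these data known. The comparison of region scores and the CCAAT spacing were added after values had been seen. By rule, values by library were given for members open in fewer than 6 libraries, with a region in 1 genotype, without overlap, among the 4 highest or 4 lowest, or among the 5 with most regions. Values of other members, and of Cdt1, Espl1 and Cenpe, were chosen after they had been seen. Alternatives covered the window, extension, flank, score minimum, list length, percentile scale and each library left out.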

Additional observations from a re-analysis of the deposited data

How the results depend on the processing

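The number of members with a gene-end summit in every library kept within 1.5 times its value under each alternative run, at 40 with a window of 500 bp, 45 with 2 kb and 32 at the annotated start alone, where 33 members have an entry. The share of member regions found in every library was 67.1% at scores of at least 5, 71.6% with lists of equal length and 59.7% to 64.0% with a library left out. Members lower in p53 AD/- without overlap numbered 1 at the annotated start alone (E2f1), 1 with lists of equal length (Mybl2), 1 among regions found in all 6 libraries (Mybl2), 1 on the log2 score (Cdc25b) and 2 to 18 with a library left out. Over all genes the lower share was 5.06% at the annotated start and 3.87% with lists of equal length. In the run without p53 AD/- library 2, which gave the 18, it was 22.4%. Members higher without overlap numbered 1 on the log2 score (Cdkn2b) and 0 to 2 with a library left out. Regions of 1 genotype numbered 3 in p53 AD/- and 4 in p53-null thymus at 2 or 3 of 3 libraries against 0, 1 in p53-null thymus with an extension of 100 bp or a flank of 50 kb, and 0 to 2 in p53 AD/- and 0 to 3 in p53-null thymus with a library left out. Regions lower without overlap numbered 6 with lists of equal length, 6 among regions found in all 6 libraries, 5 without a flank, 21 with a flank of 50 kb and 10 to 53 with a library left out. Over all regions found in every library the lower share was 4.57% with lists of equal length. The flank leaves that share at the 5.55% of the main run, and a wider flank takes in more regions. Regions higher without overlap numbered 1 with lists of equal length, 2 among regions found in all 6 libraries and 0 to 16 with a library left out. With lists of equal length 5.025% of all regions found in every library were higher. Counts without overlap that stand here with no such share are not read as a result. The median difference over all genes turned positive with lists of equal length (0.0277), among regions found in all 6 libraries (0.0332) and on the log2 score (0.0384), and ran from −1.31 to 0.234 with a library left out. E2f2 reversed to 2.19 at the annotated starts, where the higher-scoring inner start replaced the outer one. The other causes were not tested.

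E2f1 was without overlap in 11 of 14 settings and E2f2 in 10 of 14. Most of these settings could not change the separation. Leaving out a library cannot make separated groups overlap, and the windows of 500 bp and 2 kb and the score minimum gave the main differences again. On each changed scale, with lists of equal length, among regions found in all 6 libraries and on the log2 score, both genes overlapped. No paired analysis was possible because the labels give no replicate numbers. With 3 libraries per genotype no single gene can pass the test, and without read counts a difference in depth cannot be separated from a difference in openness.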
